A study of Drosophila melanogaster with 29 samples.

Results

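The genes described here are the abundant fruit fly genes that still carry only an annotation number as their symbol, CG followed by digits, in nuclear RNA from photoreceptors. A gene was included if its FlyBase identifier mapped to such a symbol and its mean normalized count over 3 libraries was at least 1000. This gave 104 genes, out of 7602 genes in the deposited table, 2357 CG-named genes of any level and 729 genes of any name at that level. A normalized count is the number of reads of a gene after scaling, each library being divided by one number so that libraries of unequal depth can be compared. The level itself chose the 104 genes, so their levels are a description and were not tested.

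The study isolated nuclei from male *Drosophila melanogaster* aged 10 days and profiled RNA and chromatin; the 26 chromatin samples of the 29 in the series were not analysed here. All flies had one genotype: a *w* background, UAS-GFP-Msp300KASH inserted at attP2 (a green fluorescent protein tag on the outer nuclear membrane), rh1-GAL4, and a *ry* mutation. The driver uses the promoter of the main rhodopsin gene, which is active in the outer photoreceptors, so the tag marks the nuclei of that photoreceptor class. There was 1 group of 3 RNA libraries, replicates 1, 2 and 3, and no RNA control. The labels name the source as retina, although heads were collected, and do not say whether the libraries came from separate batches of flies, so the tests below measure the spread between these samples, which may be technical.

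CG numbers were given to genes predicted when the fly genome was annotated, and a gene keeps its number as symbol until work on its function or a phenotype gives it a name. The number therefore says nothing of what the product does. Nuclear RNA holds newly made and unspliced transcripts, so reads can come from introns as well as exons, and a long gene can give many reads at a modest level per base. Fewer cells of a type and less RNA per cell cannot be told apart in such bulk samples.

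Reads assigned to genes summed to 3781302, 3051440 and 3769863 in replicates 1, 2 and 3, and 1 read was worth 1.29, 1.49 and 1.32 normalized counts. The 104 genes had at least 615 reads each in every library. Markers of the labelled cell type were present: all 10 photoreceptor genes checked had a row, and they summed to between 292235 and 311398 normalized counts per library. Sums were 522 to 545 for 8 glial genes, 447 to 453 for the 5 of 6 muscle genes with a row, and 257 to 301 for the 3 of 6 fat body and blood cell genes with a row. The 4 cone and pigment cell genes summed to 6602 to 7411, most of it from *w*, which the UAS transgene also carries as its marker. Of 8 testis genes 3 had a row, and these summed to 378, 557 and 156 in replicates 1, 2 and 3. No listed gene with a row had a mean of 0. The part of any of these cell types in the spread described below was not tested.

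How far the genes are without a known role was read only from the names in the annotation. All 104 were annotated as protein-coding. The RefSeq gene table lists older names beside each symbol, and for 13 of the 104 genes one of these, picked by reading the lists, refers to a protein or an activity. One of the 13, Atf-2 for *CG44247*, is the current symbol of another gene, and elF-4A for *CG9932* resembles the name of a translation factor with its own gene, so neither was read as a role. For the other 91 genes the table gave numbers, clone names or codes, which does not make them unstudied: *CG11155* and *CG1090*, described below, are among them and encode members of known protein families.

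CG-named genes made up 31.0% of the table but 14.3% of the 729 genes at that level. Of all CG-named genes 4.41% reached that level, against 11.9% of the 5245 other genes. The 104 genes held 5.63%, 5.68% and 5.57% of all normalized counts in replicates 1, 2 and 3, a mean of 5.63% ± 0.05 (SD, n = 3). The 2253 CG-named genes below the threshold held 4.51% ± 0.15.

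Levels were uneven within the set. There were 11 genes with a mean of at least 5000, 30 between 2000 and 5000, and 63 between 1000 and 2000, with a median of 1681. The 11 highest held 36.6% ± 0.15 (SD, n = 3) of the counts of the set. The other 625 genes with a mean of at least 1000 had a median of 2289 and reached far higher, to 287339. No CG-named gene was among the 60 most abundant genes: the first, *CG31038*, was at rank 61, and 5 genes of the set were within the top 100 (*CG31038*, *CG10077*, *CG33229*, *CG42795* and *CG17816*).

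The set opened with 4 genes of nearly equal level. *CG31038* (FBgn0051038, chromosome 3R) had 12210.1, 12125 and 11912 normalized counts in replicates 1, 2 and 3. *CG10077* (FBgn0035720, 3L), which encodes a DEAD-box protein, a member of a family of ATP-driven RNA helicases, had 12264, 11287 and 12293. *CG33229* (FBgn0053229, 3L) had 12007, 11011 and 12509.9. These ranges overlapped, and replicate 2 was lowest for *CG10077* and *CG33229* but not for *CG31038*. *CG42795* (FBgn0261928, 3R) had 12218, 10941 and 12054, again lowest in replicate 2. The order of these 4 genes could not be told from the spread between libraries.

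A step down followed. *CG17816* (FBgn0037525, 3R) had 8966, 8116 and 9785 normalized counts, below all 4 genes above and higher than *CG33144* (FBgn0053144, 2R; 8009, 7417 and 7908) with no overlap. *CG11155* (FBgn0039927, chromosome 4), which encodes a kainate-type subunit of the ionotropic glutamate receptors, had 7422, 6914 and 8859.9. Replicate 3 stood highest for this gene, and its range overlapped those of *CG33144* and of the next gene, *CG17839* (FBgn0036454, 3L; 7497, 7408 and 6948). *CG4168* (FBgn0028888, 2L) had 7389, 7253 and 7148, close to one another, and lay above *CG31145* (FBgn0051145, 3R; 6182, 6121 and 6178) in every library.

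*CG43255* (FBgn0262900, X) had 6147, 5813 and 6499 normalized counts and completed the 11 genes above 5000. Below it came *CG15118* (FBgn0034418, 2R) with 4535, 4681 and 4320.2, and *CG44195* (FBgn0265084, 3L) with 3753, 3459 and 4441. *CG43078* (FBgn0262508, 3L) had 3661, 3492 and 3529.7, and *CG33203* (FBgn0053203, 3R) 3625, 3477 and 3420.0. Of the 14 pairs of neighbours among the 15 highest genes, 10 had overlapping ranges. Of the 15, 13 were among the 15 highest in every library taken alone.

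**Figure D1:**
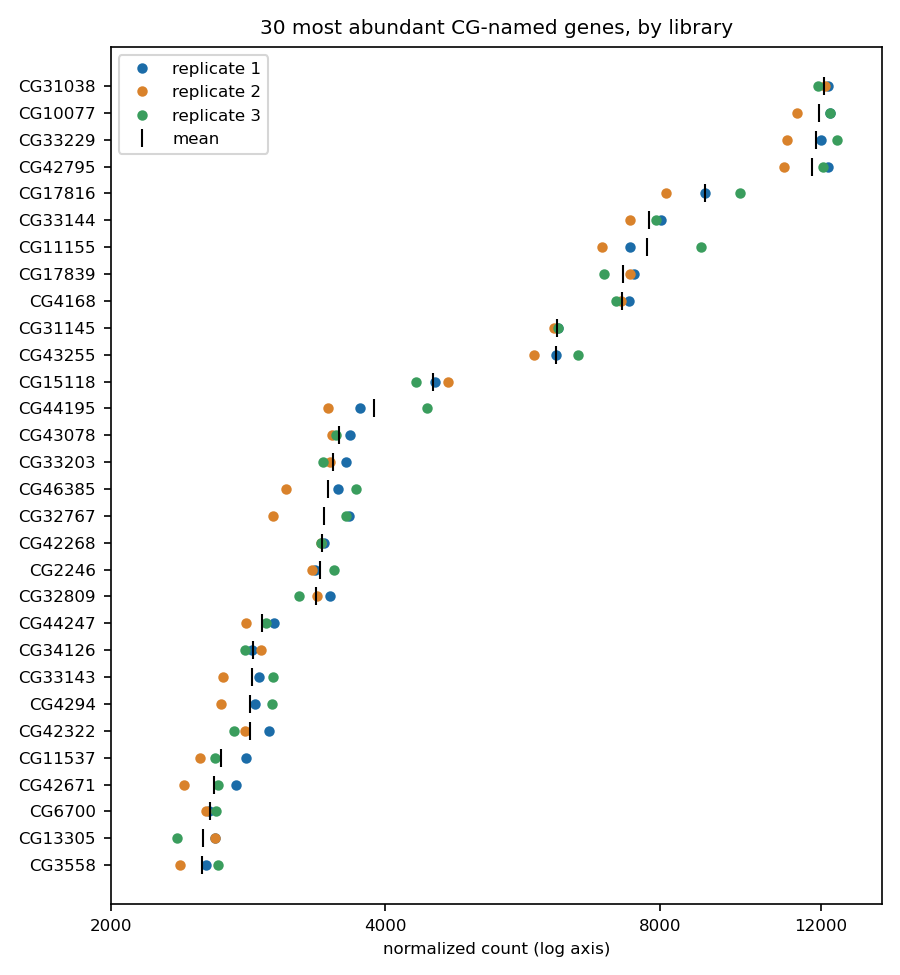
Normalized counts (horizontal log axis) of the 30 most abundant CG-named genes in replicates 1, 2 and 3 (coloured points), with the mean as a bar. The 4 highest genes overlap one another, and *CG11155* and *CG44195* show replicate 3 apart on the high side.

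At the lower edge of the set the threshold divides genes of nearly equal level. Just inside were *CG2747*, with 988, 1028 and 986 normalized counts (mean 1001), *CG2186* with 1016, 972 and 1036 (1008), and *CG32486* with 969, 1009.7 and 1052 (1010.2). Just outside were *CG5455* with 985, 1025 and 981 (mean 997), *CG17739* with 1014, 1014 and 939 (989), and *CG5174* with 1033, 895 and 1002 (977). All 3 libraries were at 1000 or above for 97 of the 104 genes. When 2 libraries chose the genes, the library left out had at least 1000 for 100 of 104 (replicate 1 left out), 99 of 104 (replicate 2) and 99 of 102 (replicate 3).

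Normalized counts are not divided by length, so genes were also compared per kb of gene span, the annotated distance from first to last base with introns included. The median span was 13220 bases for the 104 genes, 18412 for the 616 other genes of that level with coordinates, and 2500 for the CG-named genes below the threshold. Spans of at least 10 kb made up 61.5%, 75.8% and 13.4% of these 3 classes. Per kb of span, the median level was 144 normalized counts in the set, 148 in the other abundant genes and 14.9 in the less abundant CG-named genes. The median per kb of the set was close to that of the other abundant genes, with no test run on the difference. The same threshold on the mean chose both classes and left the third below it, so the 3 medians are a description. The annotation gave a median of 4, 5 and 2 transcripts per gene in the 3 classes, and 1 transcript only for 7.69%, 4.38% and 43.0% of genes.

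The order of the genes changed when levels were taken per kb of span. *CG43255*, with a span of 490 bases, came first at 12557 normalized counts per kb, and *CG33229*, with 1754 bases, followed at 6752. *CG10077* had 1863 per kb over 6414 bases, *CG13305* (FBgn0035921, 3L) 1324 over 1907 bases, and *CG15118* 1311 over 3443 bases. *CG13305* itself had 2602, 2605 and 2365 normalized counts, lowest in replicate 3. By contrast *CG31038*, first by count, had 462 per kb over 26173 bases, and *CG17839* had 94.5 over 77089 bases. Whether exons alone were counted is not given in the sources used here.

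**Figure D2:**
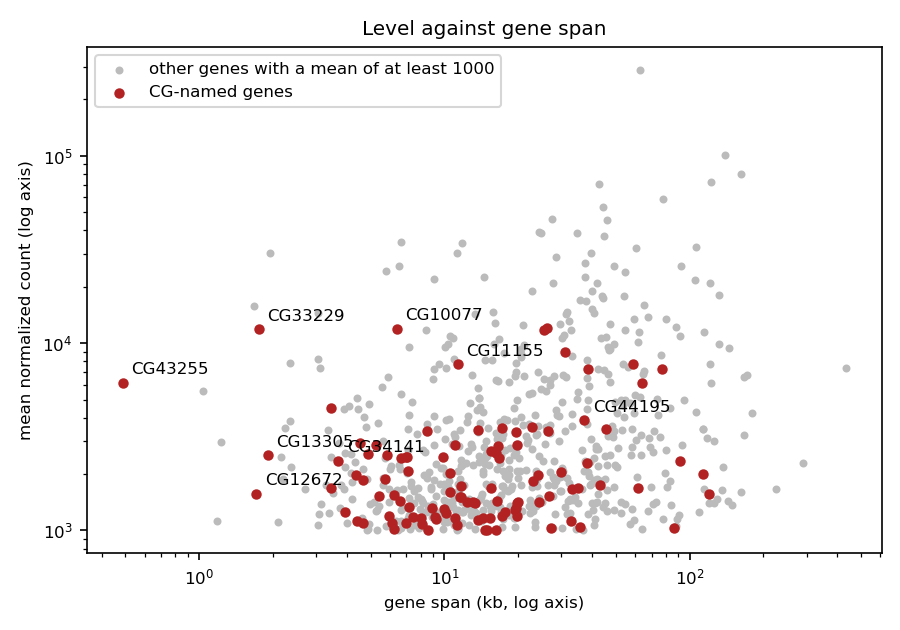
Mean normalized count (vertical log axis) against gene span in kb (horizontal log axis) for the 104 CG-named genes (red) and other genes at or above 1000 that have coordinates (grey). *CG43255* and *CG33229* lie far to the left at high level, while 82 of the 104 lie between 5 and 50 kb.

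Gene spans often overlap in the fly genome, and reads in an overlap can be assigned to either gene. Positions were those of the RefSeq annotation of Release 6 plus ISO1 MT, the assembly also called dm6 and BDGP6. Any overlap with another annotated gene was found for 51 of the 104 genes (49.0%), for 56.2% of the other abundant genes and for 52.5% of all genes of the table with coordinates. Overlap over at least 50% of the span was found for 7.69% of the set, 4.22% of the other abundant genes, 16.6% of the less abundant CG-named genes and 11.1% of all genes with coordinates. In the set these were 8 genes (*CG33229*, *CG43255*, *CG44195*, *CG34141*, *CG14200*, *CG7029*, *CG12672* and *CG32017*). *CG33229* (chromosome 3L, 223852 to 225605) has 85.5% of its span within *lncRNA:CR42862*, a non-coding gene without a row in the table. *CG14200* (FBgn0031023, X; 1888, 1879 and 1737 normalized counts) encloses *Pfrx*, which had a mean of 2333.

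Of the 104 genes 4 (3.85%) lay wholly inside a more abundant gene of the table with a mean of at least 1000. This held for 2.49% of all genes with coordinates, 4.62% of the less abundant CG-named genes and 1 of 616 other abundant genes (*esc*, 0.162%). The hosts of the 4 genes are *rdgA*, which encodes the diacylglycerol kinase of phototransduction, *Sh*, a voltage-gated potassium channel, *Ank2*, an ankyrin that ties membrane proteins to the spectrin skeleton, and *Pkn*, a protein kinase. The first 3 of these are among the most abundant genes of these nuclei. Reads of host and nested gene cannot be told apart in the table where their spans coincide, since the counting rule and the use of strand are not given in the sources used here. For each pair the level per kb of span and the ratio between the genes in each library are given. Spans include introns, and it is not known whether exons alone were counted, so the levels per kb depend on that.

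*CG43255* (X, 8923960 to 8924449) lies inside *rdgA* (8907068 to 9029476). The host had 75169, 67488 and 75921 normalized counts, and the nested gene 8.18%, 8.61% and 8.56% of these, 8.45% ± 0.24 (SD, n = 3). Per kb of span *CG43255* had 12557 against 595 for *rdgA*, 21.1 times as much. Host and nested gene were both lowest in replicate 2 and highest in replicate 3. Among the other 625 abundant genes replicate 2 was the lowest for 68.5%, and replicate 3 the highest for 327, so either position is common.

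*CG12672* (FBgn0030886; X, 18005897 to 18007606) lies inside *Sh* (17924307 to 18063247). It had 1669.5, 1532 and 1509.7 normalized counts, or 1.61%, 1.79% and 1.33% of the host, which had 103931, 85699 and 113378. The level per kb was 918 in the nested gene and 727 in *Sh*, a ratio of 1.26. Replicate 3 was the lowest library for *CG12672* and the highest for *Sh*. *Sh* passed the test of spread described below, and *CG12672* did not (chi-square adjusted p 0.165).

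*CG44195* (3L, 7658409 to 7695654) lies inside *Ank2* (7655389 to 7718395) and covers 59.1% of it. It also lies inside *CG32373*, which has no row in the table. *Ank2* had 285901, 256556 and 319560 normalized counts, and *CG44195* 1.31%, 1.35% and 1.39% of that, 1.35% ± 0.04 (SD, n = 3). Per kb it had 104 against 4560.4 in *Ank2*, 0.0229 times as much. Both genes were lowest in replicate 2 and highest in replicate 3, positions that are common among abundant genes, as given above. The ratio between them varied less than either gene, with a coefficient of variation of 2.85% against 13.0% for *CG44195* alone.

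*CG34141* (FBgn0083977; 2R, 9260278 to 9263971) lies inside *Pkn* (9252310 to 9285097). It had 2327, 2317 and 2442 normalized counts, or 20.2% ± 0.43 of the host (SD, n = 3), whose mean was 11711. The level per kb was 639 in *CG34141* and 357 in *Pkn*. Neither gene passed the test of spread described next, with chi-square adjusted p of 0.542 and 0.827.

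**Figure D3:**
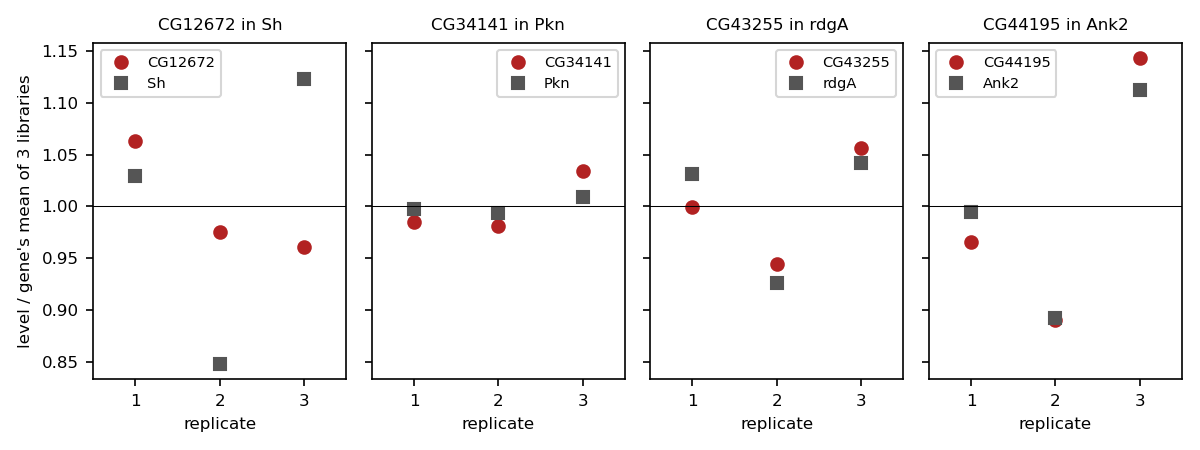
Level in each replicate divided by the mean of the gene over 3 libraries, for 4 nested CG-named genes (red circles) and the genes they lie in (grey squares). *CG44195* and *Ank2* have the same order of libraries. In replicate 3 *Sh* is at its highest, while *CG12672*, which did not pass the test of spread, is at its lowest.

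The question a single group allows is whether the libraries differed by more than counting error. Reads were tested for each gene against the size factors by a chi-square test, with Benjamini-Hochberg adjustment over all 6903 genes that had a mean of at least 10. At an adjusted p under 0.05 the test called 35 of the 104 genes, against 9.76% of all genes tested and 51.2% of the other 625 genes at that level. Deep genes are called more often, so the second share is the closer background. Leaving out replicate 2 left 13 of the 35 called and leaving out replicate 3 left 17, with no other gene of the set called in either case.

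Split by level, the test called 15 of 63 genes with a mean of 1000 to 2000 (23.8%), 12 of 30 with 2000 to 5000 (40.0%), and 8 of 11 above that (72.7%). Among the other genes the shares were 37.2%, 47.6% and 81.3%. The median coefficient of variation between libraries was 4.86% in the set and 5.31% in the other abundant genes. In none of the 104 genes did the highest library reach 1.5 times the lowest, and in 54 it was less than 1.1 times the lowest.

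**Figure D4:**
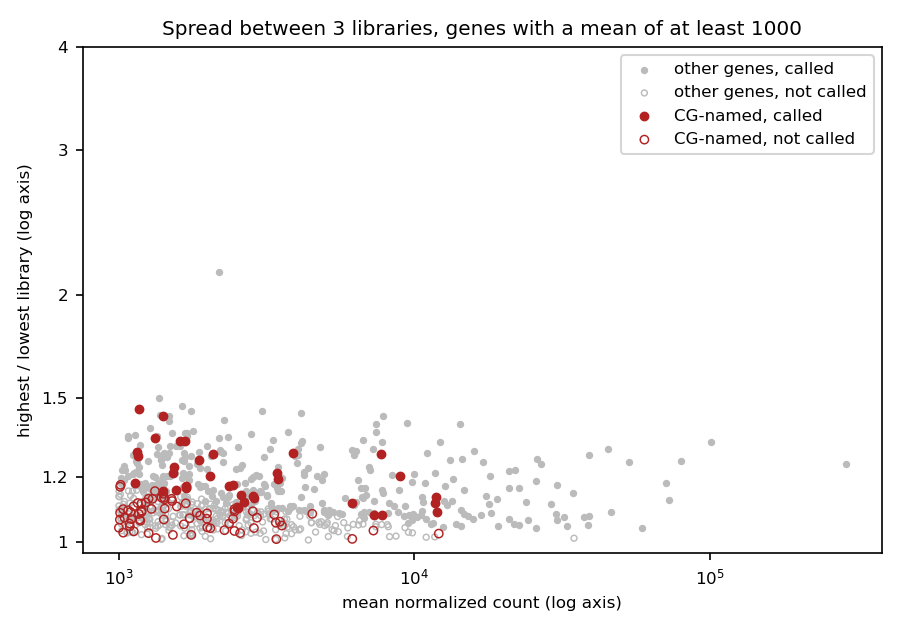
Highest library divided by the lowest (vertical log axis) against mean normalized count (horizontal log axis), for the 104 CG-named genes (red) and other genes at or above 1000 (grey). Filled points passed the chi-square test at an adjusted p under 0.05, and the highest red point is at 1.45.

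The steadiest genes had a coefficient of variation under 1% with the authors' size factors. *CG42268* (FBgn0259163) had 3429, 3402 and 3397 normalized counts, a coefficient of variation of 0.498%. For *CG31145*, listed above, it was 0.553%, but under equal totals that gene passed the test of spread (chi-square adjusted p 0.0110, against 0.958). *CG3376* (FBgn0034997), listed under the older name aSMase after acid sphingomyelinase, an enzyme that splits sphingomyelin into ceramide and phosphocholine, had 1345, 1331 and 1329, with 0.684%.

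The 5 called genes with the widest ratio were all below a mean of 2000. *CG17698* (FBgn0040056, 3L), listed as CAMKIIb after a calcium- and calmodulin-dependent protein kinase, had 1066, 995 and 1445 normalized counts. The highest library was 1.45 times the lowest (chi-square adjusted p 9.86e-15), and replicate 3 stood apart. *CG32017* (FBgn0052017, chromosome 4) had 1353, 1186 and 1691 (adjusted p 1.65e-13), and *CG11360* (FBgn0039920, chromosome 4) 1317, 1132 and 1516 (adjusted p 1.06e-07). *CG12605* (FBgn0035481, 3L) had 1609, 1382 and 1838, also highest in replicate 3 (adjusted p 5.86e-09). *CG8929* (FBgn0034504, 2R) went the other way, with 1899.8, 1704 and 1429, lowest in replicate 3 (adjusted p 4.61e-10). Without replicate 3, *CG17698*, *CG32017* and *CG8929* were no longer called (chi-square adjusted p 0.615, 0.106 and 0.116), while *CG11360* and *CG12605* were (0.0454 and 0.0164).

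Most called genes of the set shared one pattern under the authors' scaling. Replicate 3 was the highest library for 26 of the 35 and replicate 2 the lowest for 32. Replicate 2 was also the lowest for 262 of the 320 other abundant genes called. Called or not, it was the lowest for 65.4% of the 104 genes and 68.5% of the other 625. Called with replicate 3 highest were 6.07% of all genes tested and 35.4% of the other abundant genes, against 26 of 104 here. With libraries scaled to equal totals, 31 genes were called, 15 of them among the 35, and replicate 3 was the highest for 11 and the lowest for 19. Trimmed mean scaling called 27, with replicate 3 highest for 19 and lowest for 4. The direction thus depended on how libraries were scaled, and single calls did too: *CG31038* had an adjusted p of 0.553 under the authors' factors and 1.6e-09 under equal totals.

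The spread was also looked at by chromosome, a feature which the choice of genes had not used. The set had 16 genes on X, 23 on 2L, 16 on 2R, 21 on 3L, 24 on 3R and 4 on chromosome 4. Of these 5, 4, 7, 10, 5 and 4 were called, in the same order. No share called over all genes was computed for X, 2L, 2R, 3L or 3R, so these counts were not compared between arms. On 2L lay 22.1% of the set, 14.1% of the other abundant genes and 17.7% of the table, and on X 15.4%, 18.7% and 17.3%. Chromosome 4, a small and largely heterochromatic chromosome, held 3.85% of the set, 4.55% of the other abundant genes and 1.01% of the table.

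All 4 genes of the set on chromosome 4 were called and highest in replicate 3. These were *CG11155* (adjusted p 6.67e-40), *CG32017* and *CG11360*, with values given above, and *CG31998* (FBgn0051998), which had 1119, 1028 and 1322 normalized counts (chi-square adjusted p 2.01e-05). The test called 54.1% of all chromosome 4 genes tested and 96.9% of those with a mean of at least 1000, so the 4 genes were like their chromosome in this. The median log2 excess of replicate 3 over the average of the other libraries was 0.31 in the 4 genes under the authors' scaling. It was 0.23 under equal totals and 0.28 under trimmed mean scaling. Over all 104 genes these medians were 0.06, -0.02 and 0.04. All 4 chromosome 4 genes were called with replicate 3 highest under each scaling. Without replicate 3, *CG32017* and *CG31998* lost the call (adjusted p 0.106 and 0.481), and *CG11155* and *CG11360* kept it (0.0132 and 0.0454). *CG11155* and *CG32017* are neighbours whose spans overlap by 90 bases.

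*CG17698*, the gene of widest spread, is near the centromere of 3L, and genes of such regions were therefore looked at together, a class chosen after the values were seen. Among the 5% of annotated genes nearest the centromere of each arm were 7 genes of the set. Of these *CG17698*, *CG17493* (FBgn0040010; 1509, 1388 and 1716), *CG40498* (FBgn0069969; 1495, 1386 and 1683) and *CG2225* (FBgn0032957; 1107, 1059 and 1249) were called, all highest in replicate 3. *CG1090* (2494, 2415 and 2472), which encodes a relative of the potassium-dependent sodium-calcium exchangers, *CG42748* (1595, 1679 and 1779) and *CG9776* (1019, 931 and 1093) were not. The test called 22.4% of all genes of this class and 66.7% of those with a mean of at least 1000. With replicate 3 highest it called 20.5% of all genes of the class, so this direction was that of the class. Under equal totals 1 of the 7 was called, *CG17698*, and under trimmed mean scaling 3, and without replicate 3 none of the 7 was.

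**Figure D5:**
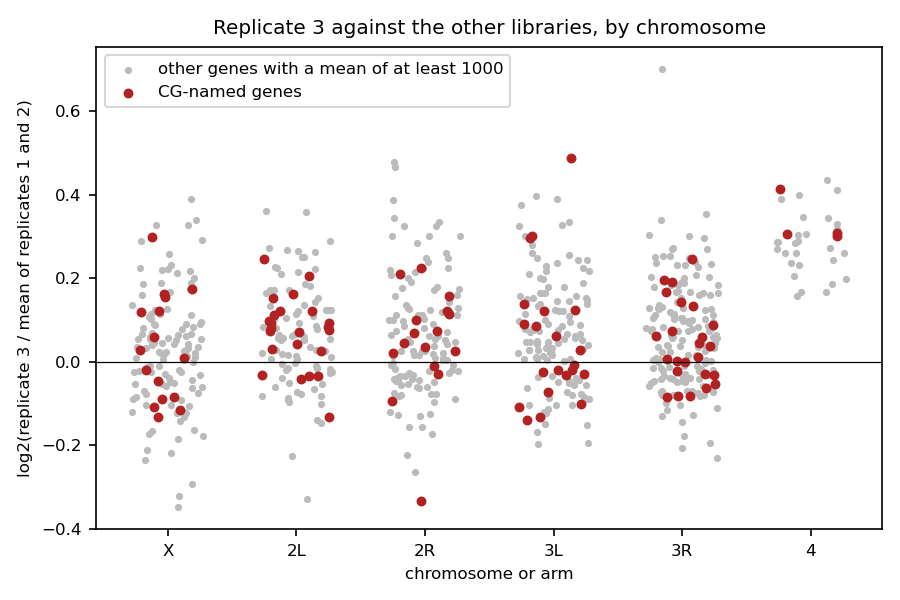
Log2 of replicate 3 over the average of replicates 1 and 2 under the authors' scaling (vertical axis) for the 104 CG-named genes (red) and other genes at or above 1000 (grey), by chromosome or arm. All genes drawn for chromosome 4 lie above 0, with the 4 CG-named genes between 0.30 and 0.41.

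The older protein names cover several classes of protein. Under the authors' size factors *CG10077* and *CG17698* were the only called genes among the 13. The test called 33.7% of the whole set, 23.8% of its genes with a mean of 1000 to 2000, and 51.2% of the other abundant genes. Whether genes with such names differ from the rest was not tested. Among names of lipid enzymes, *CG31140* (FBgn0051140), listed as DGKt after the theta form of diacylglycerol kinase, which phosphorylates diacylglycerol to phosphatidic acid, had 1469, 1411 and 1378 normalized counts. *CG31729* (FBgn0051729), listed as P4-ATPase after the pumps that move phospholipids between membrane leaflets, had 1682, 1724 and 1801. The first was lowest and the second highest in replicate 3, and the ranges of each spanned less than 1.1-fold.

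Ubiquitin-related names were held by 3 genes. *CG7220* (FBgn0033544), listed as Ube2W after a ubiquitin-conjugating enzyme, had 2558, 2331 and 2491 normalized counts. *CG9003* (FBgn0033639), listed as FBXL2 after an F-box protein with leucine-rich repeats, had 1255, 1156 and 1293. *CG6966* (FBgn0038286), listed as dFEM1A after the FEM-1 proteins that bring substrates to cullin ubiquitin ligases, had 1039, 919 and 1073. Each was lowest in replicate 2 under the authors' scaling, as were 68 of the 104 genes of the set. The chi-square adjusted p of the 3 genes was 0.139, 0.263 and 0.0869. Without replicate 1 it was 0.0383 for *CG6966*, under the threshold.

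The remaining older names refer to proteins that act at membranes, on sugars and on RNA, and the products themselves were not examined. *CG8176* (FBgn0037702), listed as FCHo after membrane-bending proteins of early endocytosis, had 1111, 1016 and 1097 normalized counts. *CG9171* (FBgn0031738), listed as dibeta3GnT2 after a glycosyltransferase, had 1631, 1631 and 1716. *CG30122* (FBgn0050122), listed as hnRNP U after a nuclear RNA- and chromatin-binding protein, had 1062, 1095 and 1112. All were within 1.1-fold across libraries.

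Older CG numbers were listed for many genes of the set. An older CG number beside the current one was listed for 42 of the 104 genes (40.4%), against 15.9% of the 2253 CG-named genes below the threshold, and 2 or more older numbers for 36.5% against 7.99%. The most in 1 gene of the set was 11, for *CG45263*. Abundant CG-named genes also had longer spans, as given above, and the part of span in this difference was not tested.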

How the data were processed

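RNA from GFP-tagged photoreceptor nuclei was sequenced in 3 libraries. The authors deposited 1 table of log2 values, named as counts normalized with DESeq2. The base and an added 1 were read from the values: 2 to the value, minus 1, gave whole multiples of 1 step per library (tolerance 0.001) for 100% of values, and reads were recovered by dividing by that step. The submitters' processing notes name Trimmomatic, STAR and SAMtools and the builds dm6 and BDGP6, with no roles. Counting program, annotation, strand and gene filter are not given in the sources used here. A total of 0 columns lacked a sample.

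Identifiers were mapped to symbols for 7553 genes. The 49 others, 8 with a mean of at least 1000, could not be considered for the set and were counted with the genes that are not CG-named. Symbols were matched to RefSeq positions of Release 6 plus ISO1 MT. Computation used scipy 1.17.1, pandas 2.3.3 and numpy 2.4.6 under Python 3.11.15. The test was tried on simulated reads with counting error alone, and with planted changes larger than any in the set. Changes as small as those in the set, and spread of other kinds, were not simulated. The test covers counting error only, since reads can be PCR copies. Values are means ± SD over 3 libraries.

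The genes, lists and tests were chosen with earlier results of these data known. Named were the 15 highest by mean, 5 by level per kb, 5 called with the widest ratio, 3 steadiest, 5 with the largest share of their span overlapped by 1 gene of the table and 3 on each side of the threshold, plus genes with an older protein name; others were chosen after their values were seen. Protein and promoter features and strand-specific overlap were planned and not run, because no sequence or strand was used here. Alternatives were scaling, filters, thresholds, pseudocounts and leaving out each library.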

Additional observations from a re-analysis of the deposited data

How the results depend on the processing

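The number of genes in the set was 197 at a mean of at least 500 and 41 at a mean of at least 2000, and their share of normalized counts 6.97% and 3.83%, by construction of the threshold. It was 97 when every library had to reach 1000, 104 under equal totals, trimmed mean scaling or RefSeq symbols, and 102 to 104 with one replicate left out. The called genes numbered 31 under equal totals, 27 under trimmed mean scaling, 30 at an adjusted p under 0.01, 35 with no filter and 38 at a minimum mean of 50. They ran from 13 (without replicate 2) to 38 (without replicate 1), and were 17 without replicate 3; fewer libraries were then compared. Of all genes tested, 674 were called in the main setting, and 342 and 243 without replicates 2 and 3. Genes overlapping another gene went from 51 to 8 when 1 single gene had to cover at least 50% of the span, and to 34 among genes with a row. The median level per kb lay between 141 and 147 when single replicates were left out. The calls went with depth: the share of the set called rose from 23.8% at means of 1000 to 2000 to 72.7% at 5000 and over. Other differences between these bands were not tested. Not run were overlap on the same strand and division by transcript length, for which the tables used here gave no values. No paired analysis was possible because the RNA libraries form 1 group.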
